A study of Mus musculus with 6 samples.

Results

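The genes described here are 10 transcription factors that build and maintain the T cell lineage, namely Runx3, Runx1, Gata3, Bcl11b, Ets1, Foxo1, Bach2, Id3, Myb and Prdm1. They were taken by symbol from a list, and all 10 were found among the 44678 Ensembl genes of the count tables and had enough counts to be tested. The RNA came from untreated CD8a+ spleen leukocytes of 3 wild-type (WT) and 3 miR-144/451 knockout (KO) mouse samples, numbered WT1 to WT3 and KO1 to KO3. The KO mice are of the C57BL/6J background and lack a short genomic segment with the precursors of both microRNAs, and the WT mice are C57BL/6J. By the study's methods all animals were young adults, and the labels mark both groups as not treated. The methods describe bead selection of CD11c+ dendritic cells, of CD8+ T cells by Ly-2 and of CD4+ T cells, without naming the sequenced samples. The paper introduces its sequencing with the question whether the microRNAs repress dendritic cell function. The genes Mir144, Mir451a and Mir451b were listed at 0 counts in all 6 libraries, WT and KO alike, so the deletion could not be checked in these data. The sample records do not say whether each library is 1 animal or a pool, so the p-values measure the spread between these libraries. Libraries held between 8143971 and 8876570 counts, and levels are given as CPM, the counts of a gene scaled to a common library total.

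T cell identity is set in the thymus and then kept by a small set of transcriptional regulators, most of which bind DNA. Bcl11b commits progenitors to the T lineage, Gata3 is needed for early thymocytes and for CD4 cells, and Runx1 and Runx3 bind the same motif through a shared Runt domain, with Runx3 silencing Cd4 in CD8 cells. Ets1 supports survival and cytokine receptor genes, Foxo1 keeps naive cells quiescent and drives homing and Il7r, Bach2 and Id3 favour long-lived memory precursors, Myb supports stem-like cells, and Prdm1, which encodes Blimp-1, drives terminal effector cells and plasma cells. Several of these proteins also act outside T cells, since Ets1, Foxo1, Bach2 and Runx1 are made by B cells and Prdm1 is the master regulator of plasma cells.

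The deleted microRNAs recognise messenger RNAs mainly by their seed, bases 2 to 8 from the 5′ end. The mature strands are shown because a seed match in a 3′-UTR is the way in which either microRNA could act on these factors directly, and the seed is in capitals (RefSeq, GRCm38.p6, chromosome 11, plus strand).
mmu-miR-144-5p: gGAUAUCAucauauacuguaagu
mmu-miR-144-3p: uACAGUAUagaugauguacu
mmu-miR-451a: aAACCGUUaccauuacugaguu

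Matches of 7 bases to these seeds were searched on the transcript strand of the longest annotated 3′-UTR of each gene (GENCODE M21, GRCm38). For miR-144-3p (ATACTGT), 4 of the 10 factors held a match, namely Gata3, Ets1, Foxo1 and Bach2, against 13.4% of the 11550 tested genes with a 3′-UTR. The 3′-UTRs of the factors are long, with a median of 2943 nt against 1183 nt over tested genes, and among the 6432 genes with at least 1000 nt the share was 20.8%. Runx1 alone of the 10 matched miR-144-5p (TGATATC), where 5.58% of tested genes did, and Bach2 alone matched miR-451a (AACGGTT), where 1.91% did. Among genes with at least 1000 nt these shares were 8.68% for miR-144-5p and 2.99% for miR-451a. No 7-base match was found in the 3′-UTRs of Runx3, Bcl11b, Id3, Myb or Prdm1. The sites are shown with flanking bases, and capitals mark the match. In Gata3, in Ets1 and at the Bach2 site shown first, the base after the match is an A, which makes an 8-base match.
Gata3, miR-144-3p, chr2:9858041-9858070, minus strand: cttatattgtaagaaATACTGTacatttga
Ets1, miR-144-3p, chr9:32757735-32757764, plus strand: tggaaaattttttatATACTGTaggctgat
Foxo1, miR-144-3p, chr3:52347379-52347408, plus strand: ttatactcttttgtaATACTGTgatggtct
Bach2, miR-144-3p, chr4:32581085-32581114, plus strand: ccctcgtctctgcggATACTGTacagcaat
Bach2, miR-451a, chr4:32584190-32584219, plus strand: aaagacaaagcagacAACGGTTtgaaagta
Runx1, miR-144-5p, chr16:92603497-92603526, minus strand: ttttcatattaatttTGATATCtaaagata

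Bach2 held 3 matches to miR-144-3p in its 5812-nt 3′-UTR, at positions 155, 432 and 804, and 1 to miR-451a at position 3909. A match describes the letters only, and binding was not measured here.

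Before the factors themselves, the composition of the libraries has to be given, because T cells and any other cells in the sample are read together. Cd8a, a chain of the CD8 co-receptor, was at 692, 1028 and 967 CPM in WT1 to WT3 and at 696, 481 and 1023 CPM in KO1 to KO3, so the labelled surface marker was present in every library. Cd3e, a part of the T cell receptor complex, was at 300, 373 and 398 CPM in WT and at 274, 220 and 390 CPM in KO libraries. B cell markers were present as well. Over the whole lists, 12 T cell markers summed to 3538, 4352 and 4245 CPM in WT and 3235, 2741 and 4189 CPM in KO libraries, while 10 B cell markers summed to 2994, 1755 and 1687 CPM in WT and 3191, 3452 and 1459 CPM in KO libraries. WT1, KO1 and KO2 thus stood together with fewer T cell and more B cell transcripts, and WT2, WT3 and KO3 with more T cell and fewer B cell transcripts. By edgeR's fit, 11 of 12 T cell markers were lower and 10 of 10 B cell markers higher in KO (median log2 fold changes -0.30 and 0.29), with 0 of either list past the adjusted threshold, and 1 T cell and 0 B cell markers had an unadjusted p under 0.05. None of these 12 and 10 marker genes had separate ranges in WT and KO, where 11.5% of the 13024 tested genes did. The sums of 8 monocyte markers were 1146 to 1840 CPM in WT and 1229 to 2318 CPM in KO libraries, with 7 of 8 higher in KO, 4 at an unadjusted p under 0.05 and 0 past the adjusted threshold by edgeR, where 6586 of all 13024 tested genes were higher and 6.25% had such an unadjusted p. Neutrophil markers (6 of 6 higher) summed to 164 to 651 CPM in WT and 262 to 782 CPM in KO libraries, and erythroid markers (7 of 7 higher) to 235 to 798 CPM in WT and 434 to 2604 CPM in KO libraries, the highest being KO2, and 0 of either list had an unadjusted p under 0.05. The sums of 9 markers of cDC1, the dendritic cells that carry Cd8a, were 651 to 707 CPM in WT and 828 to 910 CPM in KO libraries, which do not overlap. By edgeR, 0 of these 9 passed the adjusted threshold and 5 had an unadjusted p under 0.05 (6.25% of all tested genes), and 4 of 9 had separate ranges, all higher in KO (11.5% of all tested genes in either direction). Not all lists were higher in KO. Markers of plasmacytoid dendritic cells (1 of 4 tested higher) summed to 130 to 147 CPM in WT and 121 to 140 CPM in KO libraries. Natural killer cell markers (3 of 6 higher) summed to 291 to 439 CPM in WT and 291 to 390 CPM in KO libraries. In both lists 0 genes had an unadjusted p under 0.05 by edgeR. The part of these cell types in the values of the factors was not tested. In such bulk RNA, fewer cells of a type and less RNA per cell cannot be told apart.

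None of the 10 factors was called as different between KO and WT. By edgeR's quasi-likelihood test, 0 of 10 had an adjusted p under 0.05, where 0.0307% of the 13024 tested genes did, and 0 of 10 had an unadjusted p under 0.05, where 6.25% of tested genes did. DESeq2 and limma voom also called 0 of 10 on either measure. The log2 fold changes lay between -0.19 for Gata3 and 0.17 for Prdm1, with 4 factors higher and 6 lower in KO libraries and a median of -0.023, beside 0.0030 over all tested genes. For 2 of 10 factors, Ets1 and Myb, the CPM ranges of KO and WT did not overlap, where 11.5% of all tested genes had separate ranges. For a single factor, an exact permutation test of 3 libraries against 3 cannot give a p below 0.1.

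**Figure D1:**
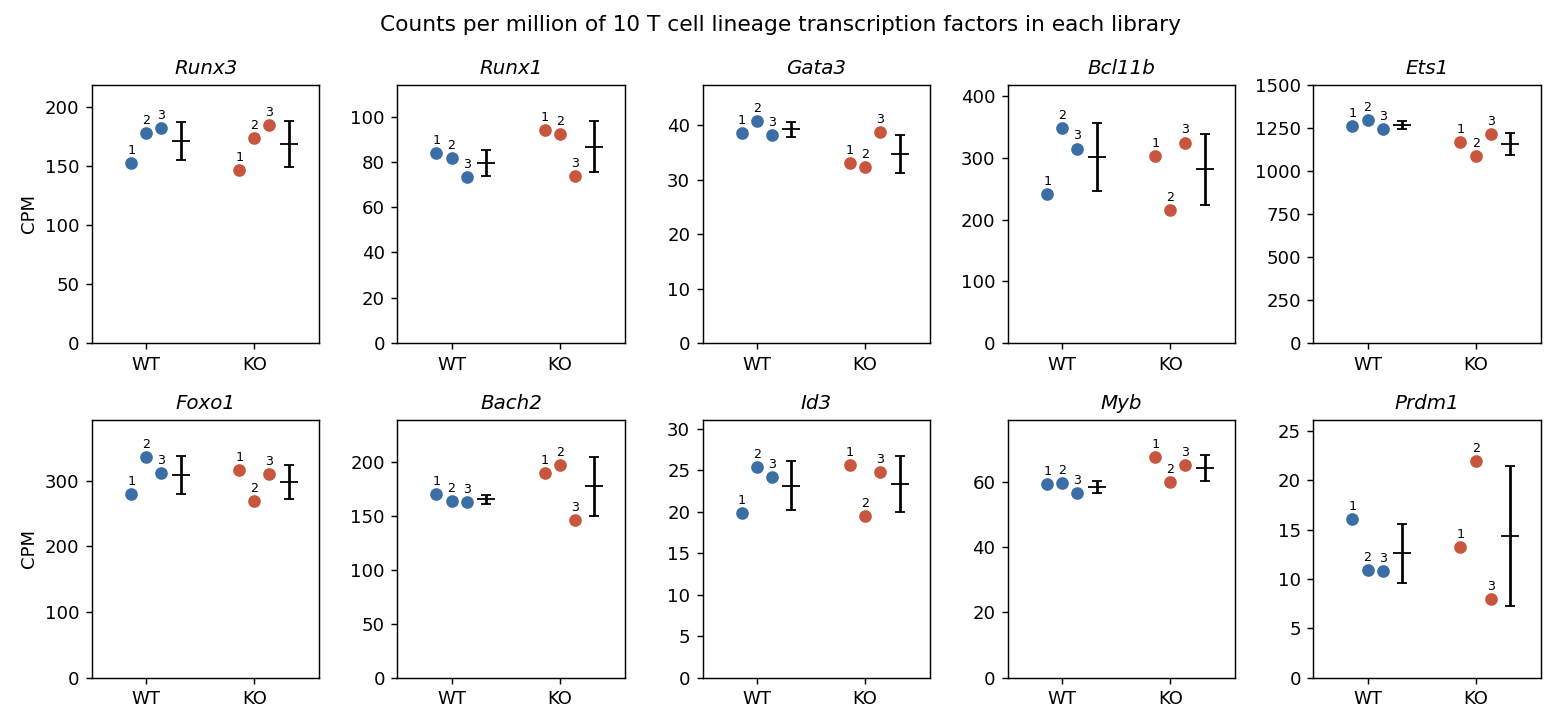
Points show CPM of each factor in each library (y axis, from 0; the digit is the library number), with WT in blue and KO in red, and the bar beside each group is its mean ± SD (n = 3). The groups overlap for 8 of the 10 factors, while Ets1 lies lower and Myb higher in all KO libraries, and Prdm1 spans the widest relative range, from 7.96 CPM in KO3 to 21.99 CPM in KO2.

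The mean levels followed the same order in both genotypes when CPM was divided by the length of the merged exons. In single libraries the order varied, with Foxo1 above Runx3 in only 1 of 3 KO libraries. Ets1 stood far above the others with 150 ± 2.97 CPM per kilobase (SD, n = 3) in WT and 137 ± 7.42 in KO libraries. Bcl11b, Foxo1 and Runx3 followed at WT means of 37.2, 35.7 and 34.2 CPM per kilobase, and neighbours in this group of 3 had overlapping ranges in both genotypes. Below them came Bach2 at 16.6, Id3 at 12.9 and Gata3 at 9.87 CPM per kilobase in WT, each separate in range from its neighbours within either genotype. Runx1 and Myb overlapped at WT means of 6.62 and 6.55 CPM per kilobase, and Prdm1 was lowest at 2.26 ± 0.536 in WT and 2.58 ± 1.27 in KO libraries. All 10 factors kept their rank between WT and KO means, although Runx1 and Myb were nearly tied in KO, at 7.199 and 7.196 CPM per kilobase.

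**Figure D2:**
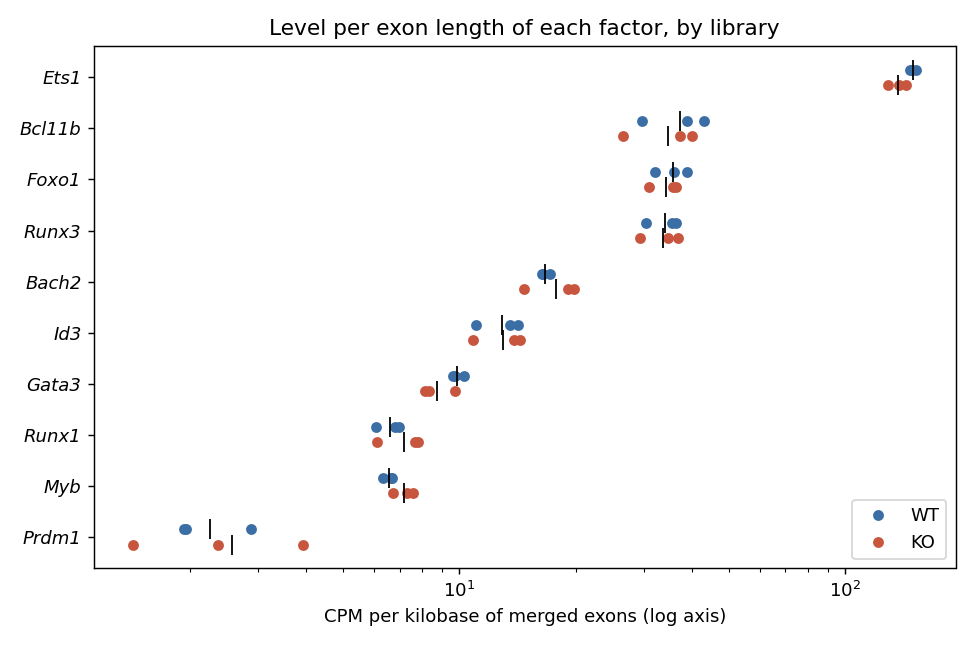
Each point is 1 library (WT blue, KO red) on a log axis of CPM per kilobase of merged exons, and the black tick is the group mean. Ets1 is highest and Prdm1 lowest in every library, and Bcl11b, Foxo1 and Runx3 share 1 level near 35.

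Among the factors of CD8 lineage and T cell identity, Runx3 (ENSMUSG00000070691, chr4:135120652-135177990, plus strand) was at 153, 178 and 182 CPM in WT1 to WT3 and at 147, 174 and 185 CPM in KO1 to KO3. The highest and the lowest value were both KO libraries, so the groups lay within each other. The log2 fold change was -0.039 with a 95% interval from -0.31 to 0.23 (edgeR adjusted p = 0.957). Its relative Runx1 (chr16:92601466-92826149, minus strand) was at 84.1, 81.7 and 73.1 CPM in WT and 93.9, 92.2 and 73.6 CPM in KO libraries. KO1 and KO2 were above all WT libraries and KO3 was within their range. The log2 fold change was 0.10 (interval -0.15 to 0.35, edgeR adjusted p = 0.881). With 1 library left out, the value for Runx1 ran from 0.025 (without KO1) to 0.18 (without KO3). The ratio of Runx3 to Runx1, per kilobase, was 5.196 ± 0.816 in WT and 4.78 ± 1.16 in KO libraries (SD, n = 3; two-sided exact permutation test, p = 0.8). It was highest in the libraries with more T cell transcripts, at 5.24 in WT2, 5.99 in WT3 and 6.04 in KO3, and between 3.76 and 4.53 in the other three.

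Gata3 (chr2:9857078-9890034, minus strand) had the most negative fold change of the 10. It was at 38.7, 40.8 and 38.3 CPM in WT and at 33.1, 32.3 and 38.8 CPM in KO libraries. KO1 and KO2 were below all WT libraries, whereas KO3 was above WT1 and WT3. KO against WT gave a log2 fold change of -0.19, interval -0.45 to 0.058 (edgeR adjusted p = 0.817). Without KO3 it was -0.31, with an unadjusted p of 0.0230 and an edgeR adjusted p of 0.269, not past the threshold. In that setting 1869 genes had an unadjusted p under 0.05, against 814 with all libraries. With the T cell marker level as a covariate, the Gata3 value was -0.070 (edgeR adjusted p = 0.971). Of its exon bases, 5.83% are shared with Gm13256 on the opposite strand or 9230102O04Rik on the same strand, and counts from these bases may belong to either gene, as strand-aware counting is not documented. Exon bases are also shared with an opposite-strand gene by Foxo1 (7.78%), Myb (6.26%), Bach2 (5.40%) and Runx1 (0.881%), which carry the same uncertainty.

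Bcl11b (chr12:107910403-108003602, minus strand), the commitment factor, varied most among the factors of this group. It was at 242, 349 and 315 CPM in WT and at 303, 216 and 325 CPM in KO libraries. The lowest values were those of KO2 and WT1, and the highest was that of WT2, so that the genotypes covered each other. Its log2 fold change was -0.12 with an interval from -0.55 to 0.31 (edgeR adjusted p = 0.913), and the difference of 20.6 CPM between the means was below the SD of either group, 54.9 CPM in WT and 57.9 CPM in KO libraries. The direction turned to 0.21 with the T cell marker covariate and to 0.041 without KO2, neither of them called.

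Ets1 (chr9:32636221-32757820, plus strand) was the most abundant factor and 1 of the 2 whose genotypes were separate. It was at 1265, 1296 and 1246 CPM in WT and at 1168, 1091 and 1215 CPM in KO libraries. All KO libraries were below all WT libraries, the nearest pair being KO3 and WT3, and the ratio of the means was 0.913. Its log2 fold change was -0.15 with an interval from -0.36 to 0.061 (edgeR adjusted p = 0.818), and the two-sided exact permutation test gave p = 0.1, the smallest it can give. It stayed negative with each library left out, from -0.22 to -0.11, and was -0.078 with the T cell marker covariate. Counting error was 0.981% of the level, beside a spread between libraries of 1.98% in WT and 5.43% in KO.

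Among the factors of quiescence and memory, Foxo1 (chr3:52268336-52353221, plus strand) was at 279, 337 and 312 CPM in WT and at 316, 268 and 310 CPM in KO libraries. The lowest value was again KO2, followed by WT1, and the other 4 libraries lay between 310 and 337 CPM. The log2 fold change was -0.072 (interval -0.33 to 0.18, edgeR adjusted p = 0.91). Id3 (chr4:136143497-136145755, plus strand), an inhibitor of E proteins, had the same 2 lowest libraries, with 19.8, 25.3 and 24.2 CPM in WT and 25.6, 19.4 and 24.8 CPM in KO libraries. Its log2 fold change was the nearest to 0 of all, -0.0077 with an interval from -0.38 to 0.36 (edgeR adjusted p = 0.993), while its mean CPM was slightly above that of WT (23.3 against 23.1 CPM), so that the sign differed between the fit and the means.

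Bach2 (chr4:32238804-32586108, plus strand), a repressor of effector genes in T and B cells, showed a narrow WT group and a wide KO group. It was at 170, 164 and 162 CPM in WT and at 189, 197 and 146 CPM in KO libraries. KO1 and KO2 were above and KO3 below all WT libraries, and the SD was 4.20 CPM in WT and 27.6 CPM in KO. The log2 fold change was 0.080 (interval -0.18 to 0.34, edgeR adjusted p = 0.905), and it turned to -0.11 with the T cell marker covariate. With 1 library left out, the value for Bach2 ran from 0.0019 (without KO2) to 0.18 (without KO3). Myb (chr10:21124935-21160984, minus strand) was at 59.4, 59.7 and 56.5 CPM in WT and at 67.7, 60.0 and 65.2 CPM in KO libraries. All KO libraries were above all WT libraries, although KO2 exceeded WT2 by less than 1 CPM. For Myb the log2 fold change was 0.12 with an interval from -0.080 to 0.31 (edgeR adjusted p = 0.842; two-sided exact permutation test of CPM, p = 0.1). Myb was the only factor that kept its direction in all 15 alternative fits, between 0.066 and 0.41. The value of 0.41 came from scaling to T cell markers, under which all 10 factors were positive. Gata3 and Ets1 kept their direction in 14 of 15 fits and turned only under that scaling.

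Prdm1 (chr10:44437177-44528501, minus strand), the effector and plasma cell factor, was the least abundant and the most variable. It was at 16.0, 10.9 and 10.8 CPM in WT and at 13.2, 21.99 and 7.96 CPM in KO libraries, from counts between 70 and 181. The highest and the lowest library were both KO, 2.76-fold apart, where no other factor spanned more than 1.62-fold over the 6 libraries. The log2 fold change was 0.17 with an interval from -0.63 to 0.97 (edgeR adjusted p = 0.937), the widest interval of the 10. It was -0.27 without KO2 and 0.43 without KO3. Adding the T cell marker covariate gave -0.60, standard error 0.20 (unadjusted p = 0.015, edgeR adjusted p = 0.588). The plasma cell marker Sdc1 was at 13.8, 7.32 and 6.88 CPM in WT and 8.67, 14.1 and 4.66 CPM in KO libraries, with KO2 and WT1 highest and KO3 lowest as for Prdm1. KO3 was not the lowest library for any of the other 4 plasma cell markers, and the sum of all 5 was 744, 331 and 272 CPM in WT and 402, 654 and 381 CPM in KO libraries, highest in WT1 and lowest in WT3. The part of plasma cells in the Prdm1 values was not tested.

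**Figure D3:**
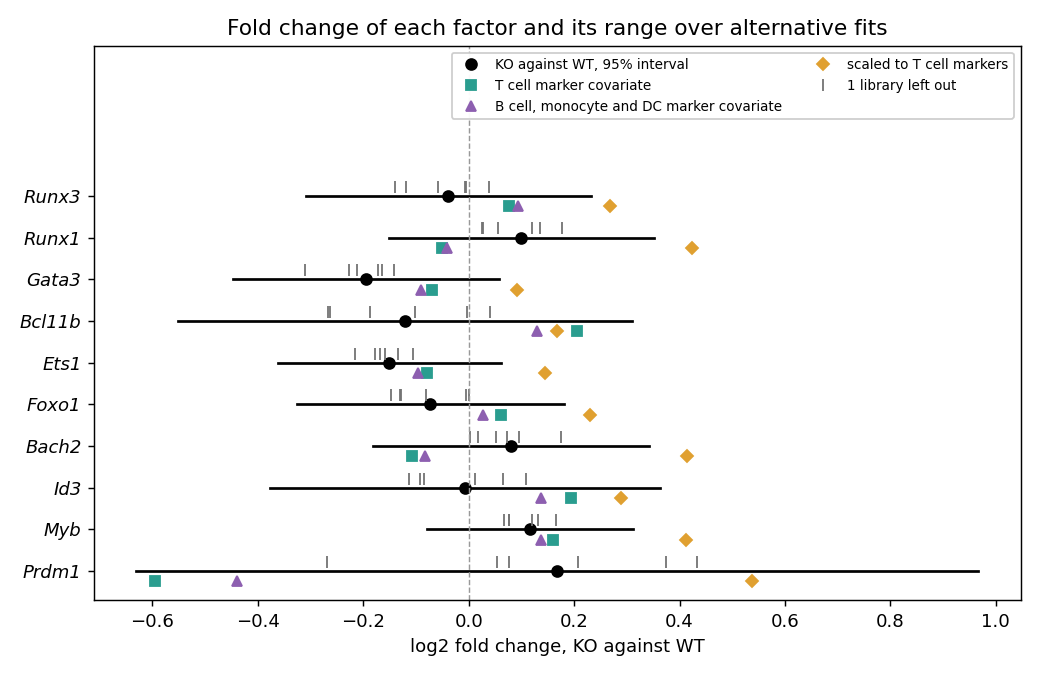
The x axis is the log2 fold change of KO against WT for each factor. Black points and lines are the edgeR values with 95% intervals, grey ticks are the fits with 1 library left out, and coloured marks are fits with a marker covariate or scaled to T cell markers. Every black interval includes 0, and the T cell marker covariate moves 7 of the 10 values across 0.

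The factors were also set beside the composition of the libraries, as a description. Bcl11b, Foxo1 and Id3 were lowest in KO2 and WT1, 2 of the 3 libraries with the fewest T cell marker transcripts. KO1, the remaining one, did not follow, since Id3 was highest there of all 6 libraries and Foxo1 second highest. Prdm1 was highest in these 2 libraries, and Bach2 and Runx1 had their 3 highest values in WT1, KO1 and KO2. Between KO2 and KO3, the libraries furthest apart in B cell markers, the ratio was 0.664 for Bcl11b, 0.784 for Id3, 0.833 for Gata3 and 0.867 for Foxo1, but 2.76 for Prdm1, 1.35 for Bach2 and 1.25 for Runx1. Ets1, Myb and Runx3 followed on from Foxo1 without a gap, at 0.898, 0.921 and 0.941. The ratio of Bcl11b to Prdm1 per kilobase ran from 6.75 in KO2 to 28.1 in KO3, and was 17.5 ± 6.22 in WT and 16.9 ± 10.7 in KO libraries (SD, n = 3; two-sided exact permutation test, p = 1). The ratio of Bach2 to Prdm1, which oppose each other in effector differentiation, was 7.60 ± 1.42 in WT and 7.78 ± 2.63 in KO libraries (SD, n = 3; two-sided exact permutation test, p = 1). For both ratios the difference between the means was below the SD of either genotype.

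**Figure D4:**
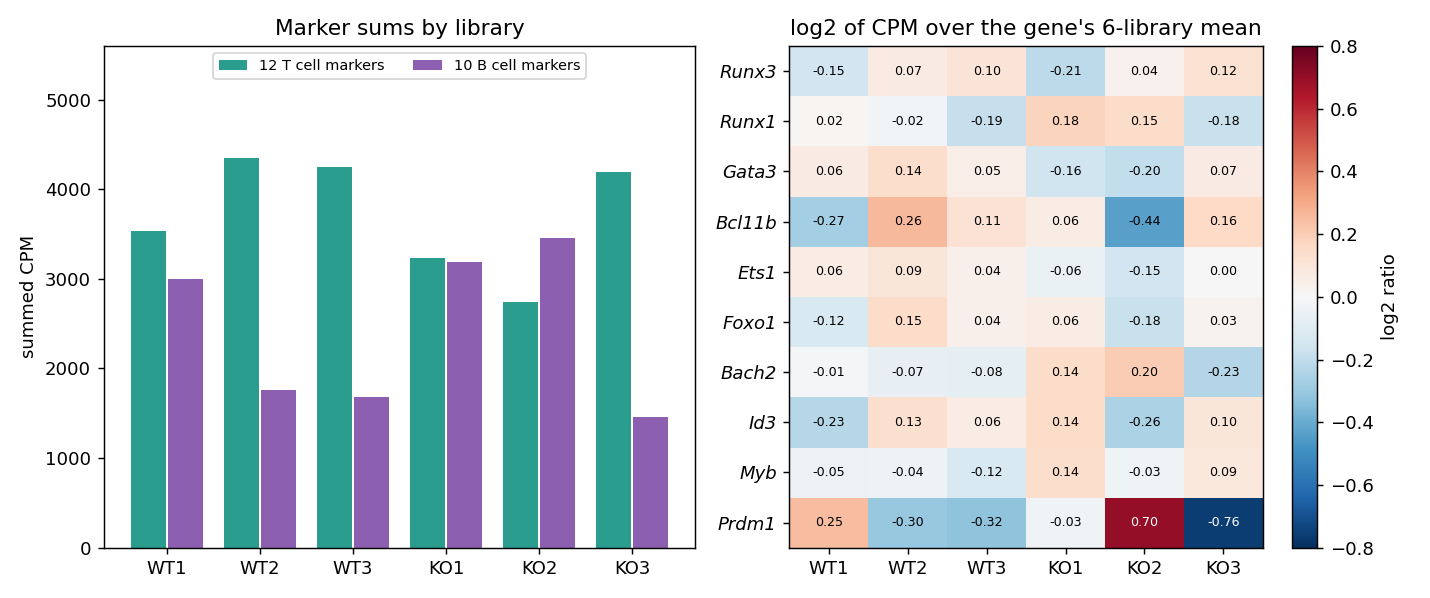
Left, summed CPM of 12 T cell and 10 B cell markers in each library. Right, log2 of each factor's CPM over its own mean of the 6 libraries, where red is above and blue below the mean. WT1, KO1 and KO2 carry the most B cell transcripts, and Prdm1 reaches 0.70 in KO2 and -0.76 in KO3.

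Relative to the T cell markers instead of the whole library, all 10 factors were higher in KO. When the library size was replaced by the summed T cell marker counts, the median of all tested genes moved to 0.31, so that a shift of this size belongs to the scaling. Relative to this median, the factors lay between -0.21 for Gata3 and 0.23 for Prdm1, and the signs of the unscaled fit returned for each of them. Per 1000 CPM of T cell markers, Runx3 was at 43.1, 40.9 and 42.9 in the WT group, against 45.4, 63.5 and 44.1 in the KO group, with every KO value above every WT value. Id3 showed the same separation, at 5.595, 5.82 and 5.70 in the WT group, against 7.93, 7.09 and 5.92 in the KO group, and for both the two-sided exact permutation test gave p = 0.1. Under this scaling 9.54% of all tested genes lay wholly higher in KO, so 2 of 10 is read only beside that share and the upward shift of the median gene. None of the 10 passed edgeR's test under this scaling.

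The factors with a seed match did not share a direction. The log2 fold changes of the 4 with a miR-144-3p match were -0.19 for Gata3, -0.15 for Ets1, -0.072 for Foxo1 and 0.080 for Bach2. Runx1, matched by miR-144-5p, was at 0.10. Over the 11550 tested genes with a 3′-UTR, the median log2 fold change was 0.028 for the 1542 genes with a miR-144-3p match and -0.0025 for those without. For miR-144-5p, the medians were 0.046 for 645 genes with and -0.00077 for genes without a match. For miR-451a, whose only match among the factors was in Bach2, the medians were 0.036 for 221 genes with and 0.0019 for genes without a match.

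The wider network of these factors was described from 3 lists, of which several genes stand in more than 1. Of 28 other T cell transcription factors, all were tested, 9 were higher and 19 lower in KO, 0 passed the adjusted threshold by edgeR and 2 had an unadjusted p under 0.05, and the median log2 fold change was -0.068. Over all tested genes, 6586 of 13024 were higher and 6.25% had an unadjusted p under 0.05, and 2 of 28 is close to that share. The 2 were Maf and Rora. Maf, a factor of helper T cells that macrophages also make, was at 31.7, 21.4 and 26.9 CPM in WT and 56.8, 70.5 and 27.4 CPM in KO libraries (log2 fold change 0.93, edgeR adjusted p = 0.716). KO3 lay within the WT values, and without KO3 Maf was called at 1.21 (edgeR adjusted p = 0.0282), in a setting that called 94 genes, 86 of them higher, against 4 with all libraries. Rora, a nuclear receptor of innate-like and memory T cells, was at 29.8, 31.5 and 28.6 CPM in WT and 24.8, 27.2 and 21.8 CPM in KO libraries, all KO libraries being lower (log2 fold change -0.31, edgeR adjusted p = 0.786), and it was the 1 of 28 with separate ranges (11.5% of all tested genes).

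Of 19 partners and antagonists of the 10 factors, 18 were tested, 14 were higher and 4 lower in KO, and the median was 0.079, beside 0.0030 over all tested genes. By edgeR, 0 passed the adjusted threshold and 2 had an unadjusted p under 0.05, the acetyltransferases Crebbp and Ep300, which serve as coactivators of Myb, Runx1 and other factors, where 6.25% of all tested genes had such a p. Crebbp was at 167, 192 and 185 CPM in WT and 220, 247 and 248 CPM in KO libraries, which do not overlap (log2 fold change 0.38, standard error 0.096, edgeR adjusted p = 0.556). Ep300 was at 229, 245 and 228 CPM in WT and 269, 332 and 269 CPM in KO libraries, which do not overlap either (log2 fold change 0.29, standard error 0.11, edgeR adjusted p = 0.769). In all, 4 of 18 partners had separate ranges, all higher in KO (Crebbp, Ep300, Id2 and Hdac1), where 11.5% of all tested genes had separate ranges in either direction. Cbfb, the common partner of Runx1 and Runx3, was at a log2 fold change of -0.0031 (edgeR adjusted p = 0.994).

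Of 20 target genes of these factors, 19 were tested, and 7 were higher and 12 lower in KO. The median was -0.15, beside 0.0030 over all tested genes and -0.30 for the T cell markers. This target median was -0.024 with the T cell marker covariate and -0.069 with the B cell, monocyte and DC marker covariate. It was -0.074 without KO2 and -0.21 without KO3. By edgeR, 0 passed the adjusted threshold and 0 had an unadjusted p under 0.05, where 6.25% of all tested genes did. Of the 19, 1 had separate ranges, S1pr1, lower in KO, where 11.5% of all tested genes had separate ranges. Il2ra, the alpha chain of the interleukin-2 receptor, was at 10.9, 7.89 and 6.75 CPM in WT and 14.6, 13.7 and 9.44 CPM in KO libraries, with KO3 below WT1 (log2 fold change 0.54, edgeR adjusted p = 0.797). Cd6, a T cell surface receptor that is also in the T cell marker list, was at 227, 279 and 286 CPM in WT and 211, 163 and 250 CPM in KO libraries (log2 fold change -0.36, edgeR adjusted p = 0.804). Among genes that Runx3 regulates, log2 fold changes were -0.31 for Cd8a, -0.48 for Cd8b1, 0.34 for Cd4, -0.19 for Itgae, -0.26 for Gzmb and -0.029 for Prf1, none past the test. All 5 CD4 T cell markers were higher (median 0.34, ranges of 1 of 5 separate, beside 11.5% of all tested genes) and both CD8 markers lower, with 0 of either list at an unadjusted p under 0.05 by edgeR, and the summed CD4 markers were highest in KO1, KO2 and WT1, the libraries with fewer T cell transcripts. The Foxo1 targets Il7r, Ccr7, S1pr1 and Klf2 were at log2 fold changes between -0.31 and -0.15, none past the test.

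**Figure D5:**
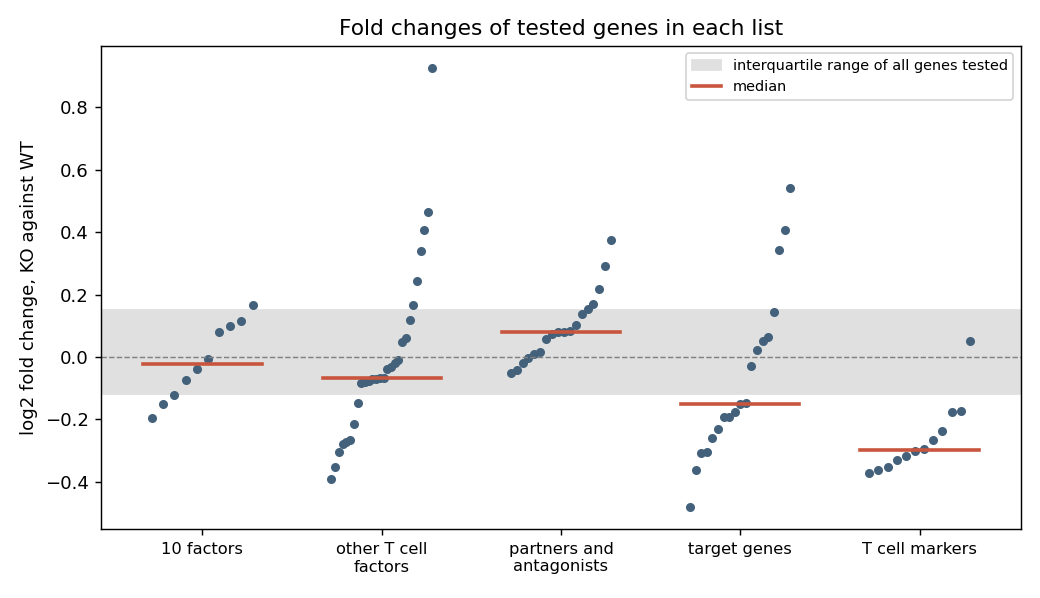
Points are the log2 fold changes of tested genes in each list (x axis) for KO against WT (y axis), red lines are list medians, and the grey band is the interquartile range of all 13024 tested genes, from -0.12 to 0.15. The 10 factors have a median of -0.023, whereas the T cell markers have a median of -0.30.

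Likeness over the 6 libraries was computed as Pearson's r of log2 CPM, as a description. The genes most like Runx3 were Zw10, Nsd3 and Txnrd1 (r = 0.993, 0.992 and 0.987), and 103 of 13023 genes had an r above 0.9. Those most like Bcl11b were Sept9, Gm13562 and Ogt (r = 0.997, 0.993 and 0.992), with 327 genes above 0.9, and those most like Prdm1 were Evi5, Fbxl5 and Tmc3 (r = 0.996, 0.992 and 0.990), with 359 genes above 0.9. The named genes are the highest of 13023, and the number expected above 0.9 for unrelated genes was not computed. The 6 points of each r are libraries that differ in T and B cell transcripts as given above. The part of composition in these values was not tested.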

How the data were processed

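RNA-seq libraries of 3 WT and 3 KO samples were analysed. The deposited values are expected counts, estimates that can be fractional, 1 for each Ensembl gene and library, whose totals differ between libraries; whether the authors scaled them is not given in the sources used here. Per the labels, total RNA was made into libraries with a SMARTER kit and the build was GRCm38 (mm10), while aligner, counter and use of strand are not given in the sources used here. Symbols, exon lengths and 3′-UTRs came from GENCODE M21 (GRCm38), and 98.75% of the identifiers had a symbol.

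Counts were rounded and KO was compared with WT across 13024 genes in R 4.3.3 with edgeR 4.0.16 (TMM, filterByExpr with a minimum count of 10 and total of 15, quasi-likelihood test, Benjamini-Hochberg adjustment, threshold 0.05). Standard errors are the log2 fold change over the root of the F statistic. At these depths 3 counts equal 0.338 to 0.368 CPM, for counting error only. The alternatives were DESeq2 1.42.0, limma 3.58.1 (voom), upper-quartile factors, 2 filters, a replicate block, scaling to T cell markers, 2 marker covariates and each library left out. The procedure was tested on simulated counts.

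The factors and all lists were chosen with earlier results of these data known. The genes named are the 10 factors, genes past 0.05 or else the 2 of smallest p in each of 3 lists, the 3 genes most like Runx3, Bcl11b and Prdm1, and some marker genes. Cbfb, Id2, Hdac1, Itgae, Gzmb, Prf1, Il7r, Ccr7, S1pr1 and Klf2 were named after their values were seen. Some named marker and target genes are not reported here.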

Additional observations from a re-analysis of the deposited data

How the results depend on the processing

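No factor was called under any of 15 alternatives, and 123 of 150 values kept their direction. Scaled to T cell markers, 6 factors turned positive, with Runx3 at 0.27, Gata3 at 0.092, Bcl11b at 0.17, Ets1 at 0.14, Foxo1 at 0.23 and Id3 at 0.29, and list medians were 0.28 (the factors), 0.24 (other T cell factors), 0.40 (partners) and 0.16 (targets), where the median of all genes was 0.31. With the T cell marker covariate, Runx3 was at 0.077, Bcl11b at 0.21, Foxo1 at 0.062 and Id3 at 0.19, and Runx1 was at -0.051, Bach2 at -0.11 and Prdm1 at -0.60. With the B cell, monocyte and DC marker covariate, the same factors were at 0.094, 0.13, 0.027 and 0.14, and at -0.041, -0.082 and -0.44. With 1 library left out, log2 fold changes ran from -0.14 to 0.039 for Runx3 (positive without KO1), from -0.27 to 0.041 for Bcl11b, from -0.15 to 0.00068 for Foxo1, from -0.11 to 0.11 for Id3 (positive without WT2, WT3 or KO2) and from -0.27 to 0.43 for Prdm1. Bcl11b, Foxo1 and Prdm1 reversed without KO2. The list medians moved too, from -0.12 (without WT1) to 0.032 (without WT2) for the factors. For other T cell factors they ran from -0.12 (without KO3) to -0.024 (without WT2). Partners ran from 0.044 (without KO1) to 0.12 (without KO3), and targets from -0.21 (without KO3) to -0.074 (without KO2). The causes were not tested.

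Genes called among all tested, 4 in the comparison reported (2 higher), were 56 with DESeq2 (51 higher), 12 without a filter (9 higher), 7 with the T cell marker covariate (5 higher), 12 with the other covariate (9 higher) and 2 to 94 with 1 library left out (2 without WT1 or WT3, 94 without KO3, 86 of them higher). Scaled to T cell markers, 5 were higher and 1 lower. The replicate block gave 9 genes (6 higher) and reversed no factor; same-numbered libraries had correlated deviations of -0.010, -0.20 and 0.11, and most libraries did not correlate best with their own number, so the numbers were not taken as pairs. With 8-base matches, 3 factors matched miR-144-3p, 0 matched miR-144-5p and 0 matched miR-451a. Counting error was largest for Prdm1, at 9.33% per library against 0.981% for Ets1. The spread of Prdm1 between libraries was larger still, at 23.7% in WT and 49.2% in KO.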
